A study of Homo sapiens with 6 samples.

Results

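IL24 and the genes around it in its signalling system were read in MCF10A cells with and without C/EBPbeta-2. The 8 members were the 4 ligands of the interleukin-10 gene cluster (IL24, IL19, IL20 and IL10) and 4 receptor chains (IL20RA, IL20RB, IL22RA1 and IL10RB), of 19775 genes in all. A probe set, the group of array probes summarised to 1 value, was taken where its only annotated symbol was a member, which gave 10 probe sets of 54613 tested. Each member had 1 probe set except IL20RA, which had 3. The members were chosen by family and role, with the differences between these same arrays already known. Their levels and differences are therefore given as a description, with no test.

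MCF10A is an immortalised human breast epithelial cell line that does not form tumours, and C/EBPbeta-2 is one of the protein isoforms made from CEBPB, a leucine zipper transcription factor gene. The study compared 3 arrays of MCF10A cells with C/EBPbeta-2 against 3 arrays of MCF10A cells alone, called control here. Both groups were cultured with horse serum, insulin, hydrocortisone, epidermal growth factor and cholera toxin and had no further treatment, per the labels. The sources used here do not give the way in which the isoform was introduced, or whether 1 clone or a pool of cells was used. The labels speak of biological replicates but not of separate cultures or passages, so p-values and SDs measure only the spread between these samples, which may be technical.

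Interleukins 19, 20 and 24 are secreted cytokines of the interleukin-10 family, and keratinocytes and other epithelial cells are among their best-known targets. All of them bind a receptor built of the chains IL20RA and IL20RB, and IL-20 and IL-24 also bind one built of IL22RA1 and IL20RB. IL20RB is thus common to both receptors of this subfamily. IL22RA1 also pairs with IL10RB to bind interleukin-22, and IL10RB pairs with IL10RA to bind interleukin-10. These receptors signal through JAK kinases, chiefly to STAT3, and SOCS proteins act as feedback inhibitors. IL24 was first described as a gene of melanoma differentiation and has been studied for its effects on growth arrest and cell death.

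The epithelial character of the cells was checked with markers, which cannot tell MCF10A from other epithelial lines. Of 8 measured, all had a mean above every array median (4.46 to 4.56, log2 intensity). KRT5, a basal keratin, lay at 12.38 to 12.93 on the 6 arrays. Over the whole table limma called 36 of 54613 probe sets (0.0659%) and 52 of 19775 genes (0.263%) at an adjusted p under 0.05, and 5.4% of the genes had an unadjusted p under the same limit. Of the 8 epithelial markers it called 2, both lower with C/EBPbeta-2, KRT14 (log2 difference -3.00, adjusted p = 0.0347) and CDH1 (-2.14, adjusted p = 0.0282). With 1 array left out at a time limma called CDH1 in 0 of 6 fits (adjusted p 0.0617 to 0.167) and KRT14 in 1, the one without C/EBPbeta-2 replicate 2 (0.0213 to 0.219). The differences of the 8 went both ways, 4 above 0 and 4 below, with the laminin chain LAMB3 at 1.17 and the integrin ITGA6 at 0.42. The mean of the 8 was 10.22 to 10.42 on the C/EBPbeta-2 arrays and 10.62 to 10.92 on the control arrays, and the part of this in other results was not tested. CEBPB itself was not higher on the C/EBPbeta-2 arrays, at 10.29, 10.50 and 11.38 against 11.27, 11.38 and 11.37 in control (log2 intensity, probe set 212501_at), so this probe set did not bear out the labels. The probe positions were not used here, and a probe set outside the introduced stretch would not detect it. The signal of the poly-A spike-in RNA split the arrays across the groups. Its mean log2 intensity was low in C/EBPbeta-2 replicate 2 (3.85) and in control replicate 1 (3.98), while the remaining 4 arrays lay between 7.21 and 8.25. These 2 also had the highest 3' minus 5' value of the ACTB control probe sets, 1.32 and 1.48, where the 4 others ranged from -0.04 to 0.64. Results are therefore also given without them.

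Among the ligands, IL24 was far higher with C/EBPbeta-2 and the other 3 stayed low in both groups. At its 1 probe set, IL24 read 11.08, 9.21 and 12.07 on C/EBPbeta-2 replicates 1, 2 and 3, and 3.28, 4.07 and 3.97 on control replicates 1, 2 and 3 (log2 intensity). The groups did not overlap: the lowest C/EBPbeta-2 array lay more than 5 log2 units above the highest control array. On the linear scale of the deposited intensities these were 2165, 590 and 4285 against 9.72, 16.8 and 15.7. The mean was 10.78 ± 1.45 against 3.77 ± 0.43 (log2 intensity, SD, n = 3), a log2 difference of 7.01 (SE 0.69), or 129-fold. The arrays read RNA of whole cultures, so more RNA per cell and more cells that express a gene cannot be told apart.

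The spread within the C/EBPbeta-2 group was wide for IL24, with replicate 2 the lowest and replicate 3 the highest. Replicate 2 is also the C/EBPbeta-2 array with low spike-in signal, and the control array with low spike-in signal, replicate 1, was the lowest control array. The log2 difference was 5.92 between these 2 arrays and 7.55 between the other 4, and the part of the spike-in level in it was not tested. All control values of IL24 lay under their array's median, where the deposited values have no stated background, so the fold depends on how low values are treated. With 16 added to each intensity before the logarithm the difference was 5.90, or 59.7-fold. Leaving out any 1 array gave log2 differences of 6.37 to 7.80.

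**Figure D1:**
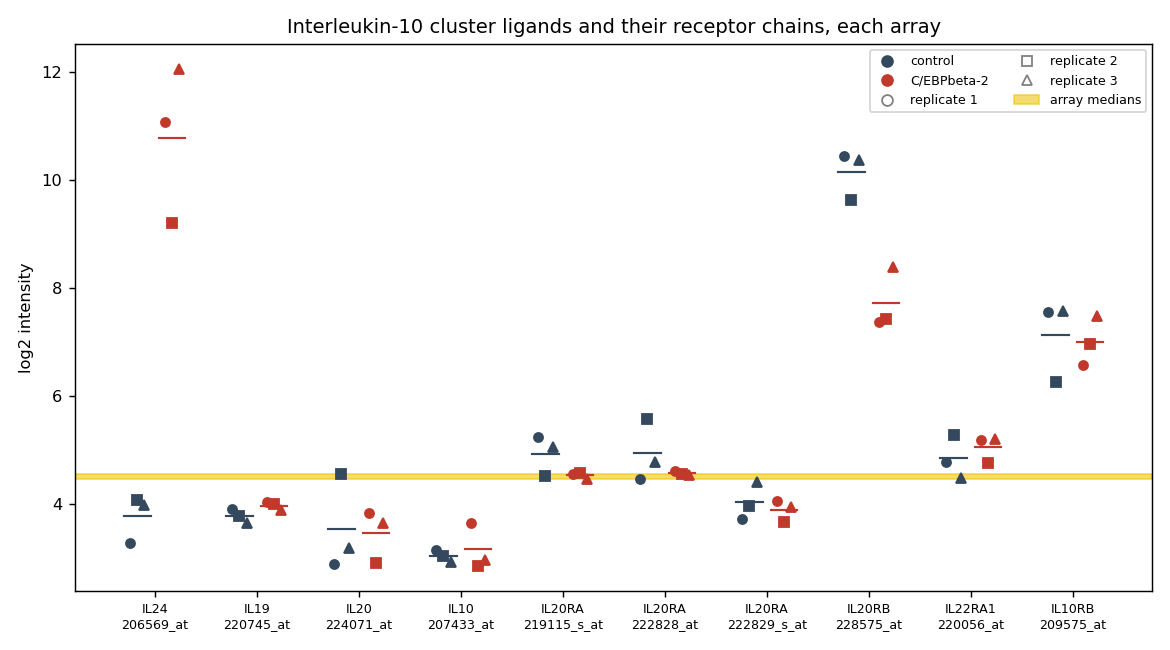
Log2 intensity of the 10 probe sets on each of the 6 arrays, control in dark blue and C/EBPbeta-2 in red, with marker shapes for the replicate and bars for the mean of 3 arrays. The yellow band holds the 6 array medians (4.46 to 4.56). The groups stand apart for IL24, which was higher with C/EBPbeta-2, and for IL20RB, which was lower.

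IL19, which binds the receptor of IL20RA and IL20RB, read 4.03, 4.0 and 3.88 with C/EBPbeta-2 and 3.90, 3.78 and 3.64 in control (220745_at, log2 intensity). The highest control array lay above the lowest C/EBPbeta-2 array, so the groups overlapped, and the log2 difference was 0.20 (SE 0.15). IL20, a ligand of both receptors, read 3.84, 2.90 and 3.64 with C/EBPbeta-2 and 2.89, 4.55 and 3.19 in control (224071_at). Its highest and its lowest value were both in control, with a log2 difference of -0.08 (SE 0.47). IL10, the anti-inflammatory cytokine that gives the family its name, read 3.65, 2.85 and 2.97 with C/EBPbeta-2 and 3.15, 3.03 and 2.92 in control (207433_at). Its groups overlapped as well, with a log2 difference of 0.12 (SE 0.24). For each of these 3 ligands the value was under the array's own median on all 6 arrays, a level at which a low transcript and no transcript cannot be told apart here.

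Among the receptor chains, IL20RB was lower with C/EBPbeta-2. IL20RB (228575_at) read 7.37, 7.43 and 8.39 on C/EBPbeta-2 replicates 1, 2 and 3 and 10.44, 9.64 and 10.37 on the control replicates (log2 intensity). The highest C/EBPbeta-2 array lay below the lowest control array, so the groups did not overlap, and all 6 arrays were well above their medians. The mean was 7.73 ± 0.58 against 10.15 ± 0.44 (SD, n = 3), a log2 difference of -2.42 (SE 0.35), or 5.35-fold lower. With 16 added to each intensity it was 5.03-fold lower. The log2 difference was -3.02 between the 2 arrays of low spike-in signal and -2.12 between the other 4, and it was -2.75 to -2.24 when any 1 array was left out. The direction of IL20RB was thus opposite to that of IL24, the ligand that its receptors bind.

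IL20RA, the partner of IL20RB in the receptor of all 3 ligands, was read by 3 probe sets, all near the array medians. Probe set 219115_s_at read 4.56, 4.58 and 4.47 with C/EBPbeta-2 and 5.24, 4.51 and 5.05 in control (log2 intensity), a log2 difference of -0.40 (SE 0.22). Probe set 222828_at read 4.6, 4.55 and 4.54 against 5.58 at the highest and 4.46 at the lowest control array, a log2 difference of -0.37 (SE 0.29). Probe set 222829_s_at was under its array's median on all 6 arrays and differed by -0.14 (SE 0.22). The groups overlapped at all 3, and the 3 control arrays did not keep 1 order across them: replicate 1 was the highest at 219115_s_at, replicate 2 at 222828_at and replicate 3 at 222829_s_at. The 3 probe sets share the gene and the samples, so they are not separate replicates.

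IL22RA1, which pairs with IL20RB for IL-20 and IL-24 and with IL10RB for interleukin-22, read 5.18, 4.75 and 5.21 with C/EBPbeta-2 and 4.78, 5.28 and 4.48 in control (220056_at, log2 intensity). The groups overlapped and the log2 difference was 0.20 (SE 0.25). IL22RA1 was above its array's median on all 6 arrays but near it, and on control replicate 3 it read 4.48 beside a median of 4.48. IL10RB, the chain common to the interleukin-10 and interleukin-22 receptors, read 6.57, 6.97 and 7.48 with C/EBPbeta-2 and 7.55, 6.26 and 7.57 in control (209575_at). It was above its array's median on all 6 arrays, the groups overlapped, and the log2 difference was -0.12 (SE 0.42). The spread of IL10RB within the control group, from 6.26 to 7.57, was wider than this difference.

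Over the members, 2 of 10 probe sets, those of IL24 and IL20RB, had groups that did not overlap, where 7.62% of all 54613 probe sets did. The members were chosen with these differences known, so nothing is read from this count.

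**Figure D2:**
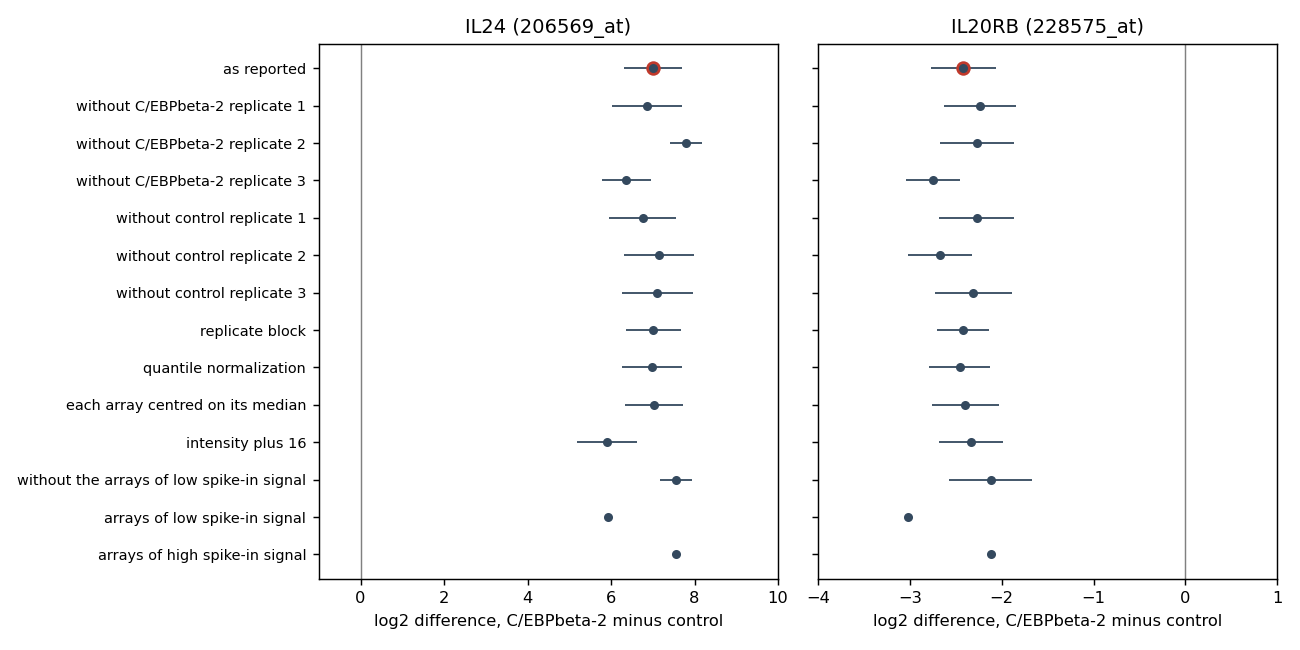
Log2 difference between C/EBPbeta-2 and control for IL24 and IL20RB as reported (red rim) and under each alternative, with bars for the SE of the fit where a fit was made. IL24 ranged from 5.90 to 7.80 and IL20RB from -3.02 to -2.12, and neither crossed 0 under these alternatives.

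The sequence before the transcription start of each member was taken from RefSeq (build GRCh38.p14), where all 8 members had at least 1 entry. Windows of 300 bases, 250 before to 50 after the start, were searched on both strands for the letters TTGCNNAA (C/EBP), TGANTCA (AP-1), TTCNNNGAA (STAT) and TATAAA (the TATA box). N stands for any base, so the AP-1 letters are looser than the AP-1 consensus, which has C or G at its centre. Of all 35116 windows in the table, 10.5% held the C/EBP letters, 7.71% the AP-1 letters, 7.66% the STAT letters and 11.5% the TATA letters. The windows of IL24 and IL20RB, the members whose groups stood apart, held none of the 4. The window of IL22RA1 held 1 match each to the C/EBP letters (TTCTGCAA on the printed strand, from base -172) and the AP-1 letters (TGAATCA, from base -223), counted back from the start. This AP-1 match of IL22RA1 has A at its centre and so is not the consensus. The 250 bases before these 3 starts are shown to let the member that was higher, the one that was lower and one with matches be read side by side. They lie at chr1:206897193-206897442 on the + strand for IL24, chr3:136957733-136957982 on the + strand for IL20RB and chr1:24143141-24143390 on the - strand for IL22RA1. All are written 5′ to 3′ in the direction of transcription, with matches in capitals.
IL24: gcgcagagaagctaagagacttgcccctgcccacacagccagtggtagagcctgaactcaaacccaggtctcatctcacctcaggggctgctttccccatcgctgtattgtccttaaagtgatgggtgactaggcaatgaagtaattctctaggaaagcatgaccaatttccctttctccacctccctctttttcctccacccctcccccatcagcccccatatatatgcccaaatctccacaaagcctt
IL20RB: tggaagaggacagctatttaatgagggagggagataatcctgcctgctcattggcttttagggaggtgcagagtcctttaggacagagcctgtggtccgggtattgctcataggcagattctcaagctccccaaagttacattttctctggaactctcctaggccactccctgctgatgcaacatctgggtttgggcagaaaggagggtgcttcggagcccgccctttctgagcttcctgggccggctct
IL22RA1: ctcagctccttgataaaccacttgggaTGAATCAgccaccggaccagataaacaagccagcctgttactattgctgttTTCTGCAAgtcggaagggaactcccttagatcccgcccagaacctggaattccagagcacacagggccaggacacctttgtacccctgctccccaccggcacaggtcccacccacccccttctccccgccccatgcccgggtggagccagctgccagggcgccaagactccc
Elsewhere among the members, the AP-1 letters were found once, in a stretch that a window of IL19 (TGACTCA, from base -107) and one of IL10 (TGAGTCA, from base -69) share: both are the same 7 bases, chr1:206770666-206770672, read on opposite strands. The C/EBP letters were found in 1 window of IL10, from base 20 after its start (TTGCAAAA). IL20, IL10 and IL20RA had the TATA letters at -32, -30 and -32. The STAT letters were found in the other window of IL19 (TTCCTAGAA, from base -217) and in that of IL10RB, from base 12 after its start (TTCCCGGAA). A match is a run of letters and not a binding site, and the absence of a match says only that these letters are not in this window.

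IL24 lies at one end of the cluster, in the order IL10, IL19, IL20, IL24 on chromosome 1, and the annotation places the end of IL24 over the end of FCMR, an immunoglobulin M receptor gene on the opposite strand. The 15 genes fixed as neighbours of the cluster included FCMR. At an adjusted p under 0.05 limma called 0 of these 15, and 4 had an unadjusted p under the same limit (the count by unadjusted p given beside later lists), where 0.263% of all genes were called and 5.4% had such an unadjusted p. Their median log2 difference was 0.06, beside 0.01 over all genes. The neighbours with the largest differences were RASSF5, a Ras-association adaptor, at -2.17 (SE 0.51, adjusted p = 0.316), the stress kinase MAPKAPK2 at 0.58 (SE 0.22, adjusted p = 0.841), and the kinase IKBKE at 0.55 (SE 0.20, adjusted p = 0.772).

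RASSF5 read 5.13, 6.65 and 5.94 with C/EBPbeta-2 and 8.28, 7.20 and 8.73 in control (log2 intensity, 223322_at), with no overlap and a wide spread in both groups. FCMR, named for its overlap with IL24 after its values were seen, read 5.76, 5.82 and 5.89 against 5.40, 5.59 and 5.33 (221602_s_at), a log2 difference of 0.39 (SE 0.15, adjusted p = 0.826). The genes on either side of IL24 thus had log2 differences of -0.08 (IL20) and 0.39 (FCMR), beside 7.01 for IL24. These differences were not tested against each other.

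**Figure D3:**
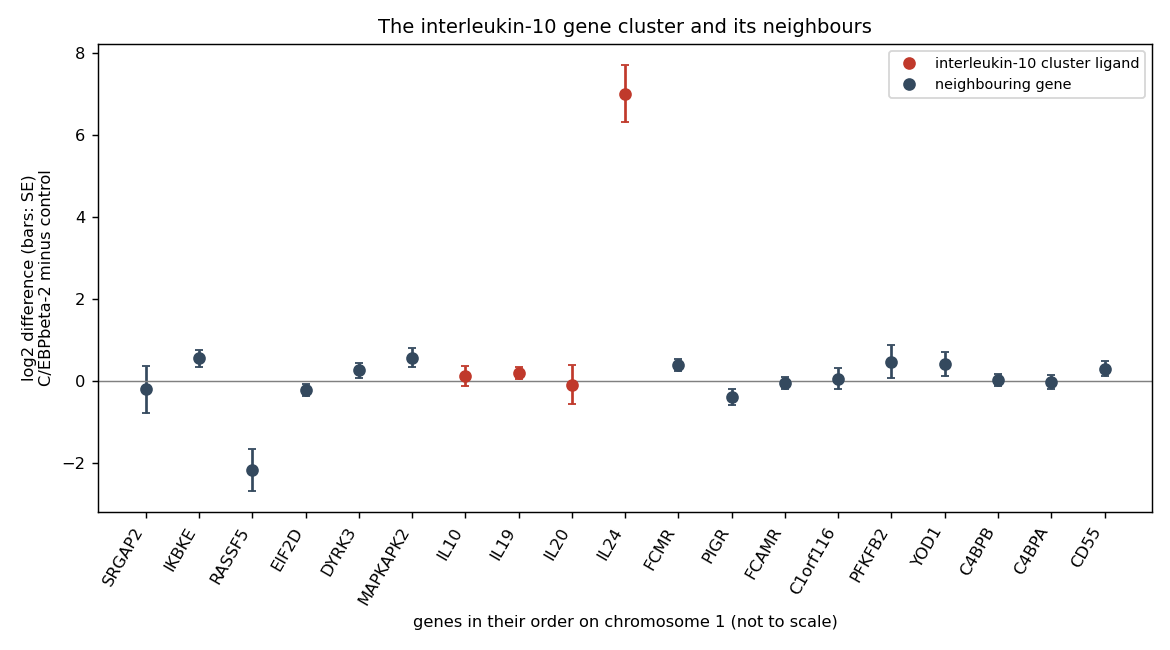
Log2 difference between C/EBPbeta-2 and control (points, with the SE of the fit) for the 4 ligands (red) and 15 neighbouring genes (dark blue), in their order on chromosome 1 and not to scale. IL24 stands at 7.01, its neighbours IL20 and FCMR at -0.08 and 0.39, and RASSF5 is the lowest at -2.17.

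The other ligands and receptors of the interleukin-10 and interferon class had differences under 1 log2 unit in size. Of the 11 measured genes in this list, 5 had a mean above every array median. For the rest, a low transcript and no transcript cannot be told apart here. None of the 11 was called by limma (0 by unadjusted p), beside 0.263% of all genes (5.4% by unadjusted p). The median log2 difference of the list was 0.05. The largest differences were those of the interferon-gamma receptor chain IFNGR1 at -0.55 (SE 0.37, adjusted p = 1.00), the cytokine IL22 at -0.21 (SE 0.28, adjusted p = 1.00) and its soluble decoy receptor IL22RA2 at 0.18 (SE 0.20, adjusted p = 1.00). IL22 read 3.64 to 3.94 with C/EBPbeta-2 and 3.72 to 4.65 in control (log2 intensity), about the level of the array medians or under it.

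Downstream, 17 genes of JAK and STAT signal transduction were measured, all with a mean above every array median. Calls by limma numbered 0 of 17 (2 by unadjusted p), beside 0.263% of all genes (5.4% by unadjusted p). The median log2 difference of the list was -0.06. STAT4, best known from lymphocytes, differed by 1.11 (SE 0.34, adjusted p = 0.572), STAT5B, a mediator of growth hormone and prolactin signals, by -0.56 (SE 0.18, adjusted p = 0.676), and PIAS3, an inhibitor of STAT3, by 0.34 (SE 0.17, adjusted p = 1.00). STAT3, named for its role after its values were seen, read 9.41, 9.31 and 9.67 against 9.20, 9.32 and 9.26 (208991_at), a log2 difference of 0.20 (SE 0.16, adjusted p = 1.00).

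Of 8 SOCS feedback inhibitors 0 were called by limma (0 by unadjusted p), beside 0.263% of all genes (5.4% by unadjusted p). The median log2 difference of the list was 0.11. SOCS4 differed by 0.41 (SE 0.50), SOCS1 by -0.22 (SE 0.34) and CISH by 0.19 (SE 0.16), each at an adjusted p of 1.00. SOCS3, a well-known STAT3 target and again named after its values were seen, read 5.78, 5.12 and 5.18 with C/EBPbeta-2 against 5.07, 5.64 and 4.98 in control, and the groups overlapped.

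Genes that keratinocytes are known to regulate in response to cytokines of this subfamily had no call, and the largest differences were below 0. Limma called 0 of 20 measured (8 by unadjusted p), beside 0.263% of all genes (5.4% by unadjusted p). DEFB4A, DEFB103A, KRT6A and KRT17 were also in the list but had no unshared probe set, so the list is not a full reading of the response. Of the 20, 15 had a difference below 0 and 5 above, and the median log2 difference was -0.20. Only 11 of the 20 had a mean above every array median. The list was not split by the direction of the known response, so nothing is read from the count of signs. The calprotectin subunits S100A8 and S100A9, antimicrobial proteins that IL-20 subfamily cytokines raise in keratinocytes, differed by -3.61 (SE 0.87, adjusted p = 0.334) and -2.52 (SE 0.96, adjusted p = 0.830). S100A8 read 8.74, 5.98 and 8.20 with C/EBPbeta-2 against 9.92, 12.35 and 11.48 in control (202917_s_at, log2 intensity), with no overlap and a spread of more than 2 log2 units in each group. S100A7, psoriasin, read 3.27, 3.49 and 3.35 against 6.49, 4.68 and 5.99 (205916_at), a log2 difference of -2.35 (SE 0.44, adjusted p = 0.171). Without control replicate 2 limma called 1 of the 20, S100A7.

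Of 18 measured genes of growth arrest and cell death that have been linked to IL24, 0 were called by limma (1 by unadjusted p). Over all genes these shares were 0.263% and 5.4%. The median log2 difference of the list was 0.15, beside 0.01 over all genes, with 15 above 0. The list holds both survival and pro-apoptotic genes, so nothing is read from the count of signs. BCL2L1, which encodes the survival protein Bcl-xL, differed by 1.19 (SE 0.36, adjusted p = 0.556), BAK1, a pro-apoptotic pore protein, by 0.64 (SE 0.39, adjusted p = 1.00), and the cell cycle inhibitor CDKN1A by 0.44 (SE 0.26, adjusted p = 1.00). BCL2L1 read 9.12, 8.56 and 9.65 against 7.61, 7.67 and 8.48 (212312_at), and its groups did not overlap.

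Of 21 AP-1 and C/EBP factors and messenger RNA stability factors, 0 were called by limma (2 by unadjusted p). Over all genes these shares were 0.263% and 5.4%, and the median log2 difference of the list was 0.12. ZFP36L1, which binds AU-rich elements and promotes decay of the RNA, differed by 0.91 (SE 0.33, adjusted p = 0.768), and the AP-1 subunits FOSL1 and JUN by 0.73 (SE 0.38, adjusted p = 1.00) and 0.69 (SE 0.28, adjusted p = 0.895). ZFP36L1 read 9.5, 10.16 and 10.83 with C/EBPbeta-2 and 9.34, 9.34 and 9.08 in control (211962_s_at), while the groups overlapped for FOSL1 and JUN. Without the 2 arrays of low spike-in signal, limma called 0 in each of these lists.

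**Figure D4:**
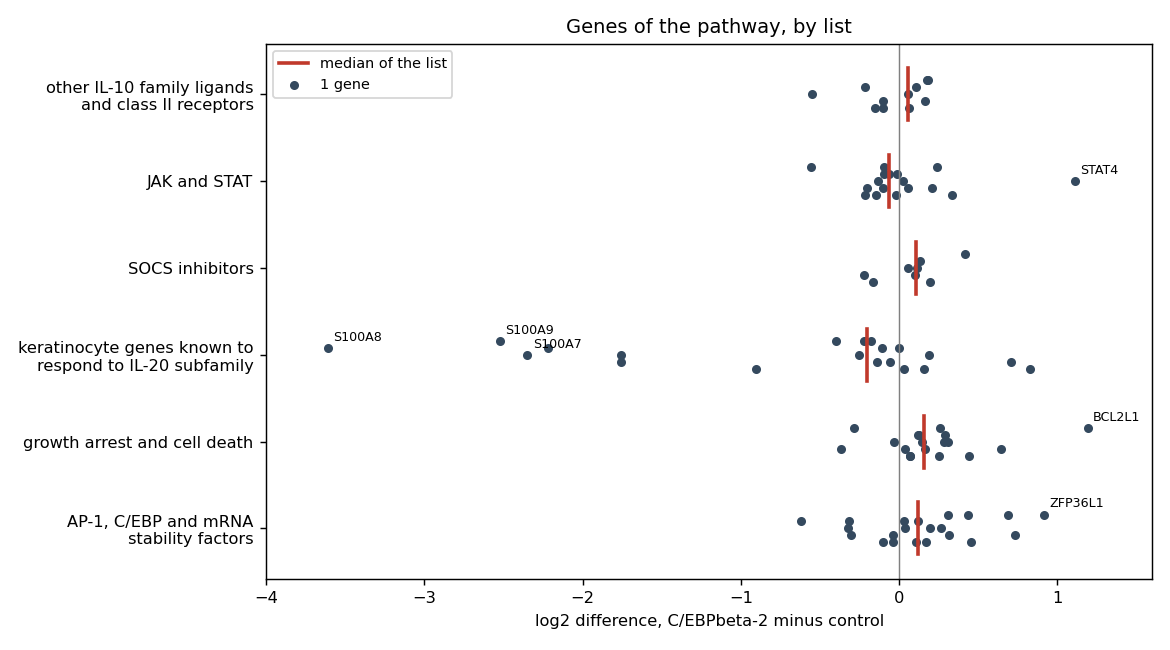
Log2 difference between C/EBPbeta-2 and control for each measured gene of 6 lists (dark blue points, spread vertically only for legibility), with a red bar at the median of each list. The medians lie between -0.20 and 0.15, and the lowest values are those of S100A8, S100A9 and S100A7 in the keratinocyte list.

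The profile of IL24 over the 6 arrays was compared with that of every other gene after each was centred on its own mean. The 5 nearest genes were TENM2, IL1R2, IL1B, INHBA and IL1RL1, with root mean square differences from IL24 of 0.51, 0.87, 1.25, 1.55 and 1.85 log2 units over 6 arrays. TENM2, a teneurin adhesion receptor, read 9.74, 8.44 and 10.92 with C/EBPbeta-2 and 3.50, 3.31 and 3.59 in control (231867_at, log2 intensity). Like IL24, it was lowest on replicate 2 and highest on replicate 3 of the C/EBPbeta-2 group. IL1B had the same order over a narrower range, at 10.92, 10.69 and 11.10 with C/EBPbeta-2 (39402_at). IL1R2 was also lowest on replicate 2, at 13.48, 11.94 and 13.39 (205403_at). Replicate 2 is the C/EBPbeta-2 array of low spike-in signal, and the part of that in this likeness was not tested. INHBA, the inhibin beta A subunit, was instead lowest on replicate 1, at 8.08, 9.51 and 9.80 against 4.38, 4.88 and 3.82 (227140_at). IL1RL1, the receptor of interleukin-33, read 9.69, 6.54 and 9.27 against 5.31, 4.63 and 4.97 (242809_at), with the same low replicate 2. The measure finds genes with a large difference between these groups by its construction, so this likeness is a description of the arrays.

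**Figure D5:**
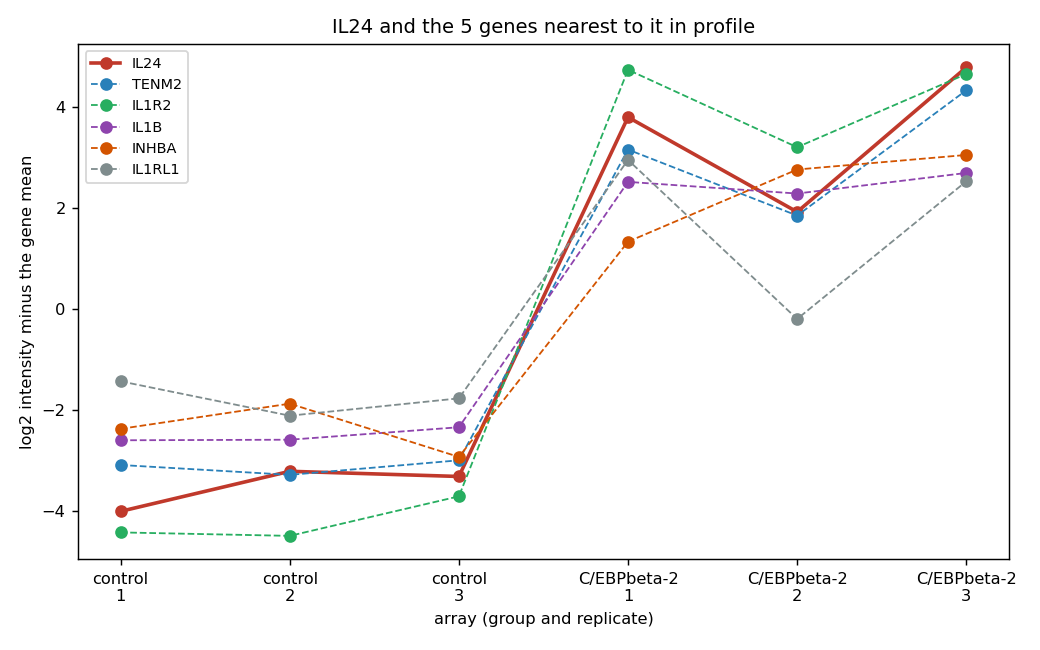
Log2 intensity minus the gene's own mean over the 6 arrays, for IL24 (solid red) and the 5 genes nearest to it (dashed). The lines join arrays only to guide the eye. IL24 and TENM2 stay closest, at a root mean square difference of 0.51. INHBA does not dip at C/EBPbeta-2 replicate 2, an array of low spike-in signal.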

How the data were processed

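Expression was measured on 6 Affymetrix arrays of biotin-labelled RNA, 3 per group. The authors deposited 1 intensity per probe set and array, made with RMA per the submitters' processing notes, which give no version or settings; the values are on a linear scale (4.17 to 17825), and the step from RMA's usual log2 output to that scale is not stated in those notes. Detection calls were not used here. The intensities were turned into log2 values with no pseudocount and no further normalization. Of 54675 probe sets, 62 manufacturer's controls were set aside. The probe annotation gave 41091 of the 54613 others 1 symbol, 1801 several and 11721 none; 41037 of the 41091 matched RefSeq by gene ID. Each gene was represented by its brightest probe set on average over all 6 arrays.

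C/EBPbeta-2 was compared with control in limma 3.58.1 (R 4.3.3; lmFit and eBayes over all 54613 probe sets, no covariate, two-sided, tested on simulated data), with p-values adjusted after Benjamini and Hochberg over 19775 genes for lists and single genes, or over 54613 probe sets for the counts of called probe sets; under 0.05 was a call, and counts "by unadjusted p" use the same limit. Every adjusted p is from limma. SD is over 3 arrays and SE is that of the fitted difference; the number of arrays limits the precision. The members and lists were chosen with earlier results of these data known. Named were all members, the called genes and up to 3 genes of largest difference in each list, and the 5 genes nearest to IL24 in profile. Genes of the lists that no unshared probe set reads were left out. Alternatives left out each array, used the replicate number as a block, normalized again, added 16 to the intensities, left out dim probe sets, or changed the prior variance or the probe set of a gene. Those on spike-in level were chosen after seeing the data. Python 3.11.15 (pandas 2.3.3, numpy 2.4.6) read the values and searched the sequences, and matplotlib 3.10.9 drew the plots. Protein sequences were not used here.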

Additional observations from a re-analysis of the deposited data

How the results depend on the processing

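Over 13 alternatives, IL24, IL20RB, IL19 and IL20RA at 219115_s_at kept the direction of their difference, while the other 6 probe sets changed sign under at least 1. Not all of the 13 are separate checks, since the replicate block leaves each difference as it was. Leaving out the arrays of low spike-in signal and comparing those of high signal also give 1 and the same difference. The difference of IL24 was 5.90 with 16 added to the intensities and 5.92 between the arrays of low spike-in signal, where those of IL20RB, IL10 and IL20RA (222828_at) were -3.02, -0.30 and 0.091; the cause was not tested. Calls over all genes were 52, and 7 to 57 with 1 array left out, 17 with 16 added to the intensities, and 13 without the arrays of low spike-in signal. Calls over all probe sets were 36, and 5 to 37 with 1 array left out, 17 with 16 added, 6 without the arrays of low spike-in signal, 78 among rows above the median level (fewer were tested) and 67 with a trended and robust prior. The number of called genes fell to 7 without control replicate 3, 9 without control replicate 1, and 10, 15 and 18 without C/EBPbeta-2 replicates 3, 1 and 2. Calls in the keratinocyte list were 0 to 1 with 1 array left out, and every other list of pathway or neighbouring genes had 0 calls under all 14 alternatives. With the replicate number as a block, limma called 0 genes and 0 probe sets, with 847 and 1701 at an unadjusted p under 0.05. Deviations from the group mean correlated between same-numbered arrays at a Pearson's r of -0.45, -0.55 and 0.42 over probe sets, so the numbers were not taken to pair the samples. Arrays of unlike number reached 0.66 (C/EBPbeta-2 replicate 2 with control replicate 1, the 2 of low spike-in signal) and 0.64 (C/EBPbeta-2 replicate 1 with control replicate 2). The protein comparison planned at the outset was not run. With 3 arrays per group and no detection calls, differences among values under the array medians could not be resolved.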

Other observations

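Markers of other cell types that can make or answer these cytokines were also read. The 9 measured leukocyte markers averaged 4.18 to 4.35 on the C/EBPbeta-2 arrays and 4.13 to 4.38 on the control arrays (log2 intensity). PTPRC, the pan-leukocyte antigen CD45, lay at 3.11 to 3.63 on the 6 arrays, under every array median. Of the 9, 2 had a mean above every array median, the lipopolysaccharide co-receptor CD14 and the receptor CSF1R. CD14 read 7.28, 6.85 and 7.09 with C/EBPbeta-2 and 6.05, 5.98 and 6.45 in control, a log2 difference of 0.92 (SE 0.20, limma adjusted p = 0.260), and CSF1R differed by -0.47 (SE 0.22, limma adjusted p = 1.00). Of the 9 differences 6 were below 0, with a median of -0.04. The 8 fibroblast markers averaged 4.69 to 5.15 with C/EBPbeta-2 and 4.94 to 5.32 in control. Only 3 of them, COL1A1, THY1 and DCN, had a mean above every array median. Of the 8 differences 5 were above 0, with a median of 0.05. The largest of these in size, against the direction of most, was that of the matrix proteoglycan DCN, which read 8.16, 7.38 and 7.11 with C/EBPbeta-2 and 11.76, 9.74 and 8.98 in control, a log2 difference of -2.61 (SE 0.70, limma adjusted p = 0.445). These markers were named after their values were seen. Limma called 0 of the leukocyte and 0 of the fibroblast markers, and 1 in each list had an unadjusted p under the same limit. Over all genes these shares were 0.263% and 5.4%.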
